A study of Homo sapiens with 4 samples.

Results

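The ATF4 and unfolded protein response genes are 48 genes in 2 arms, listed by name, with earlier results of these data known. The ATF4 arm holds 27 genes of the amino acid response: its transcription factors, their stress effectors, and enzymes and transporters that supply amino acids. The ER arm holds 21 genes of the endoplasmic reticulum (ER): stress sensors with XBP1, chaperones, disulfide isomerases and degradation factors. A gene was a member if at least 1 probe set of the array was annotated to it alone, which held for 47 of the 48, through 102 probe sets, out of 19775 genes named by 41091 probe sets. GPT2 was not analysed here. CHAC1, a glutathione-degrading enzyme, lay below the detection floor, a signal of 72.3, on all 4 arrays (19.0, 8.81, 21.3 and 31.0) and was not tested. The other 46 members, 25 in the ATF4 arm and 21 in the ER arm, were above the floor on all 4 arrays.

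M14, an established human melanoma cell line, was stably transfected with pIRES2-eGFP, either empty or carrying FLAG-tagged ARHGAP8 as the splice variant without exon 5. Both lines were selected with G418 and sorted for eGFP, and both were grown in medium with 10% fetal bovine serum. Each was cultured for 4 days either on plastic coated with collagen I and harvested before confluence (2D), or embedded in 40% growth factor-reduced Matrigel, a basement membrane gel (3D), with fresh medium every 2 days. Each of the 4 combinations went onto 1 array, and each plasmid was carried by 1 line, so the plasmid and the line cannot be told apart. The lines are called EV (empty vector) cells and ARHGAP8 cells below. This design, with its few arrays, limits the precision of every value.

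ATF4 is a transcription factor whose mRNA is translated better when the initiation factor eIF2 is phosphorylated, by GCN2 when amino acids run short, by PERK when unfolded protein builds up in the ER, or by other kinases. It then induces genes of amino acid synthesis and uptake, often together with C/EBP partners. The other branches of the unfolded protein response run through the sensors ATF6 and IRE1: ATF6 is cleaved to an active factor, IRE1 splices XBP1 mRNA, and both factors induce ER chaperones and degradation genes. The arrays read mRNA levels, so neither ATF4 translation, nor ATF6 cleavage, nor XBP1 splicing was measured.

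On the ARHGAP8 3D array the median signal of the 18S ribosomal RNA control probe sets was 626 against 27.7 to 49.4 on the other 3, and that of 28S was 1390 against 94.4 to 119. The 3' to 5' signal ratio of the ACTB controls was 1.05 to 1.10 in 2D and 1.23 to 1.32 in 3D; that of GAPDH was 0.874 to 0.925. The part of these differences in the results was not tested. The 4 probe sets annotated to ARHGAP8 also name another gene and read 4.02 to 14.8, so they do not check the plasmid labels. Of 9 melanocyte markers on the array 8 were above the floor on all arrays, and PMEL was below it on all. The summed signal of the 9 was 9184 in 2D and 10666 in 3D in EV cells and 6276 and 9700 in ARHGAP8 cells. In the limma test described below 4 of the 8 were higher in 3D, where 2.83% of all genes tested were. Between the lines, TYRP1 was higher in ARHGAP8 cells, at 1.10 log2, and GPR143 lower, at -1.49. Both passed that test, where 0.068% of all genes were higher and 0.0604% lower. Of markers of other cell types, 0 of 5 keratinocyte, 3 of 6 fibroblast, 0 of 4 leukocyte and 1 of 4 endothelial genes were above the floor on all arrays, with summed signals of 166 to 207, 575 to 763, 124 to 150 and 398 to 483. In bulk RNA, fewer cells of a type and less RNA per cell cannot be told apart.

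The arms differ in the elements known to control them, and these are shown because the members that carry them are followed through the results. Promoters, here the 250 bases before the gene's start in RefSeq (GRCh38.p14), were found for 41 of the 48 members, 21 of the ATF4 arm and 20 of the ER arm. The ATF4-CEBP composite element was searched as TGATGNAA, the ER stress element, bound by NF-Y with ATF6 or XBP1, as CCAAT, then any 9 bases, then CCACG, and the UPR element as TGACGTGG. Each was searched on both strands; TGACGTGG holds CCACG on its opposite strand, and no member's promoter held matches to more than 1 of the elements. The matches to the ATF4-CEBP element follow, 5′ to 3′ along the strand of the match, with the element in capitals and 6 flanking bases on each side.
ASNS, chr7:97872463-97872482, minus strand: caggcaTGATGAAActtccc
ATF3, chr1:212565210-212565229, plus strand: tcaggaTGATGGAAggctgt
CEBPG, chr19:33374065-33374084, plus strand: ggcgtcTGATGCAAcctgcc
CHAC1, chr15:40953256-40953275, minus strand: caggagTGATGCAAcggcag
HERPUD1, chr16:56931960-56931979, minus strand: acgggcTGATGCAAcccgcc

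The ER stress element had matches in 7 members, shown in the same way.
HSPA5, chr9:125241385-125241415, minus strand: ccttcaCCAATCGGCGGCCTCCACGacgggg
HSP90B1, chr12:103930210-103930240, plus strand: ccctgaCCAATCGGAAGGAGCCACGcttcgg
HSP90B1, chr12:103930315-103930345, minus strand: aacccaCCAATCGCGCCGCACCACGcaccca
CALR, chr19:12938378-12938408, minus strand: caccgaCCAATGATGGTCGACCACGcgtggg
CANX, chr5:179698772-179698802, plus strand: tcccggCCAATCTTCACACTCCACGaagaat
PDIA6, chr2:10812847-10812877, minus strand: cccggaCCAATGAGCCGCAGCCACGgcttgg
CRELD2, chr22:49918548-49918578, minus strand: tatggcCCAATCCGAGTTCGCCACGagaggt
XBP1, chr22:28800597-28800627, minus strand: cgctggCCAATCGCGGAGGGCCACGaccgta

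The UPR element had a match in 1 member of each arm.
ALDH18A1, chr10:95656758-95656777, plus strand: cgctgtTGACGTGGggcgag
HYOU1, chr11:119057380-119057399, minus strand: gccccgTGACGTGGtccaat

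The ATF4-CEBP element was present in 4 of 21 ATF4 arm promoters and 1 of 20 ER arm promoters, against 3.14% of all 35116 promoters in the table and 2.70% of the 10650 of tested genes. The ER stress element was present in 7 of 20 ER arm promoters and 0 of 21 ATF4 arm promoters, against 0.074% and 0.131%. The UPR element was present in 0.612% of all promoters. A match is a stretch of letters and not a shown binding site, and no match says only that these letters are not in this window. The whole windows of ASNS and ATF3, the members past the culture test that held a match, and of HSPA5, chosen after its values were seen as the classical ER stress gene, are given with the element in capitals, read along the gene. They lie at chr7:97872409-97872658 (minus strand), chr1:212565157-212565406 (plus strand) and chr9:125241344-125241593 (minus strand).
ASNS: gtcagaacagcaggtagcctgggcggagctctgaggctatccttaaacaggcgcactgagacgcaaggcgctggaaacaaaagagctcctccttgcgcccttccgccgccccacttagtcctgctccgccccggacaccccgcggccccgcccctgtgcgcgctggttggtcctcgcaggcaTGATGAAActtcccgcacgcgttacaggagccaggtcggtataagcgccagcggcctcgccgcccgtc
ATF3: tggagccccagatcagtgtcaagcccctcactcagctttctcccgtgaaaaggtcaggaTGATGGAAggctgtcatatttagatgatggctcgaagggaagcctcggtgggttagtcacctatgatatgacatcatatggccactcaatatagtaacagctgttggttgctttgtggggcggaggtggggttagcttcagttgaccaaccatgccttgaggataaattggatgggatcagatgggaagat
HSPA5: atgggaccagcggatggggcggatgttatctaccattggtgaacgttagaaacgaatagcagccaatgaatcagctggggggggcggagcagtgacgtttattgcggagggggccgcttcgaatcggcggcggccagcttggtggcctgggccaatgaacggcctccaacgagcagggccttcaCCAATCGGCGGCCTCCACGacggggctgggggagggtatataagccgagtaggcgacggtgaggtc

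**Figure D1:**
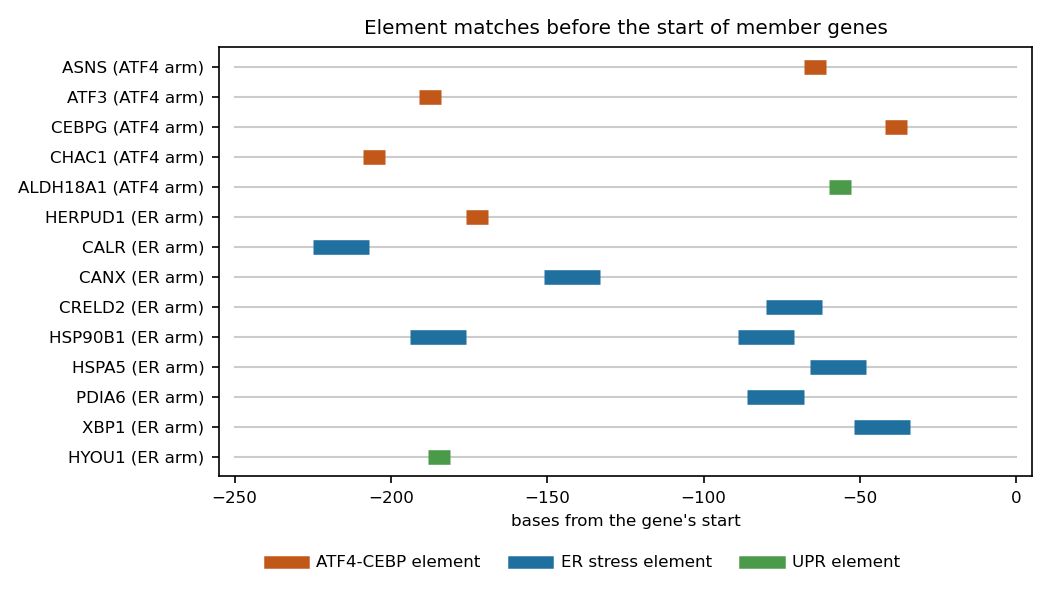
Position of each element match in bases from the gene's start (x axis), 1 row per member with a match; colours mark the element. The 5 ATF4-CEBP matches lie in 4 ATF4 arm genes and HERPUD1, the ER stress matches in 7 ER arm genes; CANX has 2 listed starts and is drawn once.

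The first comparison set 3D against 2D culture. ASNS, TRIB3, ATF3 and CTH of the ATF4 arm and the ER co-chaperone gene DNAJB9 rose in 3D, between 1.56-fold and 2.62-fold, and SLC7A11, the cystine importer gene of the ATF4 arm, fell. HSPA5, which encodes the main ER chaperone BiP, read 0.07 ± 0.18 log2. The 3D over 2D ratio was tested in limma with plasmid and culture as additive terms, two-sided, with Benjamini-Hochberg adjustment over 13239 genes and a threshold of 0.05. Of the 46 members 5 rose, where 2.83% of all genes tested rose, and 1 fell, where 4.15% of all genes fell. By arm, 4 of 25 ATF4 arm genes rose and 1 fell, and 1 of 21 ER arm genes rose and 0 fell. At an unadjusted p under 0.05, 12 members were higher, where 9.89% of all genes were, and 4 were lower, where 11.1% were. The count of members past the test moved with the settings, from 0 with the mean of each gene's probe sets, where 25 of all genes tested rose and 12 fell, to 10 over genes never below the floor, where 445 rose and 626 fell; ASNS passed under 7 of 8 alternatives and SLC7A11 under 2. Ratios not named as a fold are log2, and a pair of them gives EV cells first. Errors are moderated standard errors over the 4 arrays, which draw mostly on other genes of like signal. The gene's own part, with 1 residual degree of freedom, is how far its culture ratio differs between the lines. The spread between lines remade with the same plasmid, or between repeat cultures of a line, was not measured. Statements below that the 3D and 2D arrays of a gene overlap or not describe its 4 signals only. The share of all genes without overlap is not given here, so these statements add no evidence to the test.

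**Figure D2:**
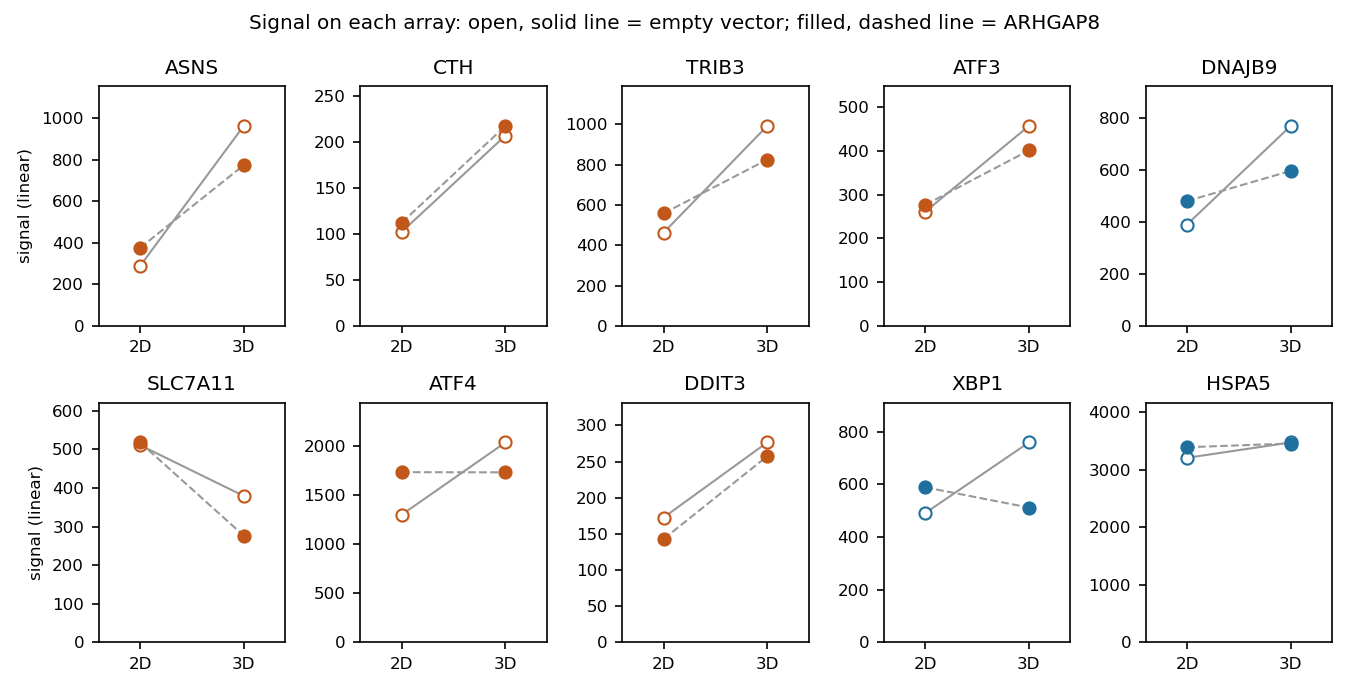
Deposited signal, rescaled, on a linear axis from 0 for 10 members in 2D and 3D (x axis); open circles are the empty-vector line and filled circles the ARHGAP8 line, 1 array each, orange for the ATF4 arm and blue for the ER arm. ASNS, CTH, TRIB3, ATF3 and DNAJB9 are higher in 3D in both lines and SLC7A11 lower, while HSPA5 stays between 3209 and 3475.

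Among the 7 regulators of the ATF4 arm, 2 rose, 0 fell and the median log2 ratio was 0.55, from 0.27 to 0.83. The TRIB3 signal was 462 in 2D and 992 in 3D in EV cells, and 558 and 825 in ARHGAP8 cells. TRIB3 encodes a pseudokinase that ATF4 induces and that restrains AKT and ATF4 itself. Both 3D arrays were above both 2D arrays, with ratios of 1.10 and 0.56, and it rose by 0.83 ± 0.17 log2 (1.78-fold; adjusted p 0.00475 in limma after Benjamini-Hochberg adjustment). For ATF3, a stress-induced transcription factor, the signals were 261 and 457 in EV cells and 277 and 401 in ARHGAP8 cells. Its groups did not overlap either, and it rose by 0.67 ± 0.19 (1.59-fold; adjusted p 0.0395 in limma after Benjamini-Hochberg adjustment). DDIT3, the gene of the factor CHOP, read 173 and 276 in EV cells and 143 and 257 in ARHGAP8 cells. Its 3D signals were also above its 2D signals in both lines, at 0.76 ± 0.23, and it lay just outside the threshold (adjusted p 0.0522 in limma after Benjamini-Hochberg adjustment).

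ATF4 itself was measured at 1304 in 2D and 2040.3 in 3D in EV cells, and at 1737 and 1736 in ARHGAP8 cells. The lines thus differed: the 3D array was higher in EV cells and level with 2D in the other. Its average ratio was 0.32 ± 0.17 (adjusted p 0.308 in limma after Benjamini-Hochberg adjustment). CEBPB, a C/EBP partner of ATF4 and the regulator with the lowest average, read 2528 and 3079 in EV cells and 2299 and 2749 in ARHGAP8 cells. Its ratio was 0.27 ± 0.17 and did not pass. NUPR1, a stress-induced chromatin protein gene, was higher by 0.55 ± 0.17 without passing (adjusted p 0.0547 in limma after Benjamini-Hochberg adjustment). CEBPG, the other C/EBP partner, read 0.64 in EV cells and 0.03 in ARHGAP8 cells.

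Of the 3 stress effectors tested, 0 passed. The signals of VLDLR, a lipoprotein receptor gene that ATF4 induces, were 139 and 279.6 in EV cells and 159 and 227 in ARHGAP8 cells. Both 3D arrays were above both 2D arrays, at 0.76 ± 0.24 (adjusted p 0.0643 in limma after Benjamini-Hochberg adjustment). SESN2, the sestrin gene that restrains mTORC1, read 144 in 2D and 86.7 in 3D in EV cells but 121 and 189.5 in ARHGAP8 cells. Its culture ratios were opposite, -0.73 and 0.65, and averaged -0.04 ± 0.29. The SESN2 signal in 3D in EV cells was near the floor, and its other probe set was below the floor on all arrays. PPP1R15A, which encodes the GADD34 subunit that dephosphorylates eIF2, read 0.33 and -0.22.

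The amino acid synthesis genes held the largest ratio of the 46 members. The ASNS signal was 288 in 2D and 962 in 3D in EV cells, and 375 and 773 in ARHGAP8 cells. ASNS encodes asparagine synthetase, a textbook ATF4 target whose promoter match is shown above. The 3D arrays were clear of the 2D arrays, with ratios of 1.74 and 1.04, and it rose by 1.39 ± 0.185 (2.62-fold; adjusted p 7.23e-05 in limma after Benjamini-Hochberg adjustment). CTH, the gene of cystathionine gamma-lyase, which makes cysteine, read 102 and 207 in EV cells and 112 and 217 in ARHGAP8 cells. It rose in both lines by nearly the same amount, 1.02 and 0.95, on average 0.98 ± 0.25 (adjusted p 0.0184 in limma after Benjamini-Hochberg adjustment). Its 2D signals were not far above the floor.

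The other 8 synthesis genes did not pass. CBS, whose enzyme makes the substrate of CTH, was at 0.55 ± 0.22 (adjusted p 0.15 in limma after Benjamini-Hochberg adjustment); it has a near-identical annotated copy, so its signal is uncertain. In the serine pathway, PSAT1, the synthesis gene with the lowest average, read 2119 and 1805 in EV cells and 2100.2 and 2197 in ARHGAP8 cells. Its groups overlapped, at -0.08 ± 0.17. PHGDH, the first enzyme of serine synthesis, read 0.24 ± 0.16, and PSPH, the last, -0.08 ± 0.20. Of the mitochondrial one-carbon enzymes, MTHFD2 was at 0.36 ± 0.16 and SHMT2 at 0.10 ± 0.16. The proline synthesis genes ALDH18A1 and PYCR1 were at -0.03 ± 0.16 and -0.04 ± 0.18. The median over the 10 synthesis genes was 0.17.

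Of the 5 amino acid transporters 0 rose and 1 fell. SLC7A11, the light chain of the cystine-glutamate exchanger, read 511 in 2D and 379 in 3D in EV cells, and 518 and 277 in ARHGAP8 cells. Both 3D arrays were below both 2D arrays, with ratios of -0.43 and -0.90, and it fell by 0.67 ± 0.19 on the log2 scale (adjusted p 0.0347 in limma after Benjamini-Hochberg adjustment). SLC7A5, the LAT1 transporter of large neutral amino acids, read 404 and 597 in EV cells and 530.4 and 388 in ARHGAP8 cells. Its culture ratios were opposite, 0.56 and -0.45. SLC38A2, the SNAT2 transporter and the highest average of the 5, read 1699 and 2029 in EV cells and 1932 and 2282 in ARHGAP8 cells. That was 0.26 and 0.24, on average 0.25 ± 0.16, and did not pass. SLC7A1, a cationic amino acid transporter, and SLC3A2, the heavy chain shared by SLC7A5 and SLC7A11, were at 0.13 ± 0.16 and -0.07 ± 0.19. The median over the 5 was 0.06.

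In the ER arm, 0 of the 4 genes of sensors and XBP1 passed, and their median was 0.35. ATF6, a membrane-bound factor cleaved in the Golgi, read 268 in 2D and 403 in 3D in EV cells, and 209.6 and 287 in ARHGAP8 cells. The 3D arrays were above the 2D arrays, at 0.52 ± 0.21 (adjusted p 0.144 in limma after Benjamini-Hochberg adjustment). The 3 other ATF6 probe sets disagreed, at -0.09 and -0.42, -0.26 and 0.86, and 1.30 and 1.04. EIF2AK3, the gene of PERK and the lowest of the 4, read 369.7 and 528 in EV cells and 421 and 377 in ARHGAP8 cells. XBP1 followed the same pattern of signals, 491 and 759 against 589 and 512. On the probe sets used, both were thus higher in 3D in EV cells and lower in the other, with averages of 0.18 ± 0.19 and 0.21 ± 0.19. ERN1, the gene of IRE1, ran the other way, at 99.3 and 99.3 in EV cells and 77.3 and 151 in ARHGAP8 cells. Its average was 0.48 ± 0.26, with 2D signals near the floor. The other XBP1 probe set, above the floor on all arrays, was above 0 in both lines, at 0.09 and 0.17.

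Among the 11 chaperones and cofactors 1 rose, 0 fell, and the median was -0.07. DNAJB9, which encodes the BiP co-chaperone ERdj4, read 389 in 2D and 768 in 3D in EV cells, and 479 and 595 in ARHGAP8 cells. It rose by 0.65 ± 0.18 (1.56-fold; adjusted p 0.0362 in limma after Benjamini-Hochberg adjustment). Its ratio was 0.98 in EV cells and 0.31 in ARHGAP8 cells. HSPA5 was 3209 and 3475 in EV cells and 3393 and 3457 in ARHGAP8 cells. The 4 signals lay close together and the ratio of 0.07, which was -0.03 with quantile normalization and 0.27 with the mean of its probe sets, did not pass (adjusted p 0.873 in limma after Benjamini-Hochberg adjustment). The other HSPA5 probe set read 0.54 and 0.38. CRELD2, an ER stress-induced secreted protein gene and the lowest of the 11, read 419 and 328 in EV cells and 569 and 342 in ARHGAP8 cells. Its 3D signals were below its 2D signals, at -0.54 ± 0.19 (adjusted p 0.0854 in limma after Benjamini-Hochberg adjustment). The lectin chaperone gene CALR was at -0.50 ± 0.16 (adjusted p 0.0643 in limma after Benjamini-Hochberg adjustment), while its membrane-bound relative CANX was at -0.03 ± 0.17. The 2 other CALR probe sets read -1.10 and -0.54, averaged over the lines. HSP90B1, the ER HSP90 gene, was at 0.32 ± 0.18, DNAJB11 at -0.38 ± 0.16, HYOU1 at -0.35 ± 0.19, SDF2L1 at -0.17 ± 0.25, MANF at -0.07 ± 0.16 and DNAJC3 at 0.03 ± 0.19.

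The 3 disulfide isomerases, which form and correct disulfide bonds, and the 3 genes of ER-associated degradation (ERAD), which removes misfolded ER proteins, held 0 members past the test. PDIA3 read 1289 in 2D and 1642 in 3D in EV cells, and 1486 and 1535 in ARHGAP8 cells, an average of 0.20 ± 0.16. Its 3D arrays were above its 2D arrays without passing. PDIA4 read 648 and 605 in EV cells and 593 and 613 in ARHGAP8 cells, at -0.03 ± 0.16. The groups of PDIA4 overlapped and its sign depended on the scaling. PDIA6 was at 0.15 ± 0.17. HERPUD1, an ERAD factor and the ER arm gene with an ATF4-CEBP match, read 523 and 683 in EV cells and 473 and 599 in ARHGAP8 cells, at 0.36 ± 0.17 (adjusted p 0.214 in limma after Benjamini-Hochberg adjustment). Its 3D arrays were above its 2D arrays. EDEM1, a mannosidase-like ERAD protein gene, read 261 and 282 in EV cells and 298 and 345 in ARHGAP8 cells. Its groups overlapped, at 0.16 ± 0.20. SEL1L, of the ERAD ligase complex, was at 0.24 ± 0.16. All 3 ERAD genes were above 0 in both lines.

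**Figure D3:**
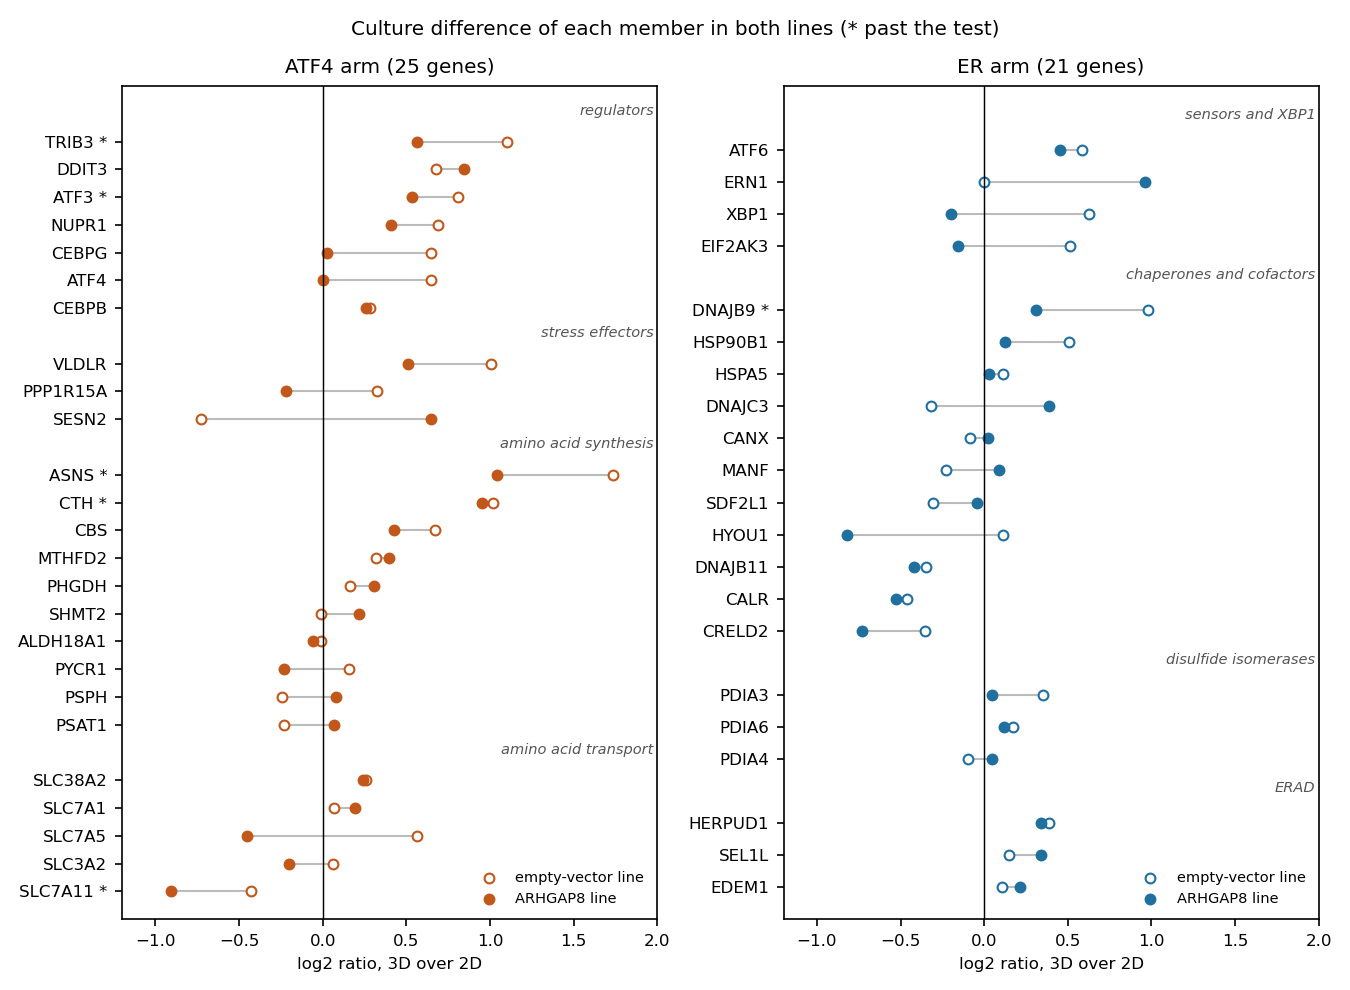
Log2 ratio of 3D over 2D (x axis) for each tested member by role, open circles for the empty-vector line and filled circles for the ARHGAP8 line; an asterisk marks members past the limma test. The 4 ATF4 arm genes that rose, TRIB3, ATF3, ASNS and CTH, and DNAJB9 of the ER arm lie right of 0 in both lines, and SLC7A11 lies left of 0 in both.

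Set against each other, the arms had median culture ratios of 0.25 for the ATF4 arm and 0.15 for the ER arm, against 0.03 over all genes tested, and these are descriptions with no test. These are medians of ratios averaged over the lines, and the gap between them was 0.10. Within lines the gap was larger, 0.20 in EV cells (0.32 against 0.12) and 0.19 in ARHGAP8 cells (0.24 against 0.05). A median of averaged ratios need not lie between the medians of the lines. The direction of the 0.10 gap depends on how probe sets are combined: with the mean of each gene's probe sets it was -0.08, since the ATF4 arm median was then 0.08. In the ATF4 arm 14 of 25 genes and in the ER arm 9 of 21 were above 0 in both lines, against 34.1% of all genes, and 2 and 4 were below 0 in both, against 28.9%. In the other 17 members the lines had opposite signs, against 35.2% of all genes. Without its sensors the ER arm had a median of 0.03 over 17 genes. The 4 tested members with an ATF4-CEBP match had a median of 0.52, from 0.34 to 1.39, and 2 of them passed. The 7 with an ER stress element match had a median of 0.07, from -0.54 to 0.32, and 0 passed. Both are descriptions of few genes.

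In single ratios of 1 array over 1 array, which carry no p-value, 4 members were at least 2-fold higher in 3D in EV cells, where 1.73% of all genes were: ASNS, TRIB3, CTH and VLDLR. ASNS was the 1 such member in ARHGAP8 cells, where 1.81% of all genes were. At least 2-fold lower were 0 members in either line, against 1.29% of all genes in EV cells and 1.96% in ARHGAP8 cells. The ratio was larger in EV cells for 30 of the 46 members, 17 in the ATF4 arm and 13 in the ER arm, against 49.1% of all genes. Of the 7 regulators 6 were larger there; DDIT3 was the exception.

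Other probe sets of the 6 members that passed bear on how firm each value is. ASNS had 1 other probe set, below the floor on all arrays, so its rise rests on 1 probe set. Those of DNAJB9 read 0.98 and 1.06, averaged over the lines, both above the 0.65 of the probe set used. Those of ATF3 read 0.77 and 0.32. For TRIB3 the other probe set read 1.47 in EV cells and -0.11 in ARHGAP8 cells, near the floor. For CTH it was at the floor in 2D and gave bounds of 0.56 and 0.17. SLC7A11 had the least agreement, with other probe sets at -0.34 and -0.02. Of the 46 members, 27 had another probe set above the floor on at least 2 arrays, and in 20 of them all such probe sets had the same sign as the one used. Of 46 such probe sets 36 had the same sign. These signs are of ratios averaged over the lines, so a counted probe set can differ in sign between them. The other HSP90B1 probe set, counted as the same sign, read -0.25 in EV cells and 1.25 in ARHGAP8 cells. Opposite ones include CEBPG, whose other probe set read -0.50 against 0.34, MTHFD2, at -0.42 against 0.36, and ATF6, whose lowest read -0.26 against 0.52. For SLC7A1, 1 of 4 others had the same sign, and they ran from -0.76 to 0.38 against 0.13. HSP90B1, SLC38A2, CALR and PDIA6 are represented by probe sets whose probes may bind other transcripts.

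**Figure D4:**
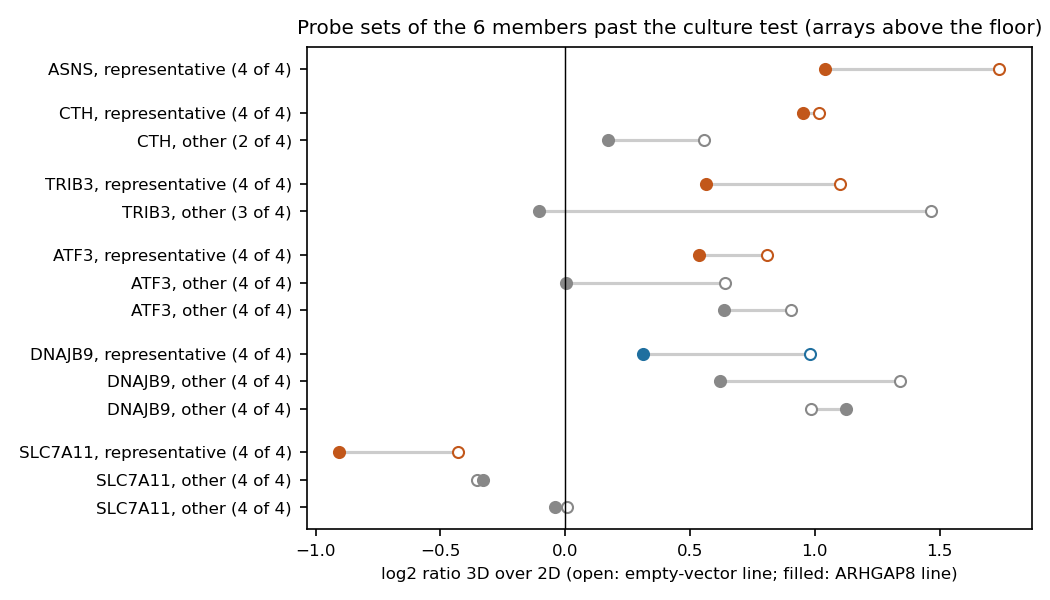
Log2 ratio of 3D over 2D (x axis) for each probe set, above the floor on at least 2 arrays, of the 6 members past the culture test; open circles are the empty-vector line, filled circles the ARHGAP8 line, coloured for the probe set used and grey for others. All 3 DNAJB9 probe sets lie right of 0 in both lines, while those of SLC7A11 run from -0.67 to -0.02 on average.

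Genes of the same pathways outside the 48 were read from 3 further lists, also chosen with earlier results of these data known. Their shares beside those of all genes are therefore descriptions and add no evidence to the test. Of 40 other ATF4 response genes 30 were tested, 5 rose (16.7%) and 0 fell, with a median of 0.22. Of all genes tested 2.83% rose and 4.15% fell. The mTORC1 inhibitor gene DDIT4, which low oxygen also induces, rose by 2.14 ± 0.16, from 465 to 1947 in EV cells and from 338 to 1573 in ARHGAP8 cells. KLHL24 rose by 1.28 ± 0.19, NDRG1, also induced by low oxygen, by 0.90 ± 0.18, and the neutral amino acid transporter gene SLC1A4 by 0.74 ± 0.17, with adjusted p from 4.19e-08 to 0.011 in limma after Benjamini-Hochberg adjustment. The fifth, outside the naming rule, was LARS1, the leucyl-tRNA synthetase gene, whose other probe sets read from -0.28 to 0.41 against 0.74. Among 6 genes of eIF2 control, 0 rose and 1 fell: EIF2S1, the alpha subunit of eIF2, fell by 0.89 ± 0.17, while its other 2 probe sets read 0.01 and 0.02. Of 37 tested genes among 42 other ER folding and ERAD genes, 1 rose and 2 fell, with a median of -0.04. The share that rose, 2.70%, was near that of all genes, 2.83%. The one that rose was ERO1A, the ER thiol oxidase gene, also induced by low oxygen, at 1.13 ± 0.16, with other probe sets at 1.62 and 1.29. SEC61A1, of the ER translocon, fell by 0.87 ± 0.17, and CREB3, an ER-anchored transcription factor gene, fell by 1.10 ± 0.27. The CREB3 ratios, from its only probe set, were -0.57 and -1.63. Its 3D signal in ARHGAP8 cells, 76.7, was near the floor.

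The second comparison set the ARHGAP8 line against the empty-vector line. HYOU1, an ER chaperone gene of the HSP70 family, had the lowest ratio of the members. Its signals were 1214 in EV cells and 1003 in ARHGAP8 cells in 2D, and 1315 and 568 in 3D. The low ARHGAP8 3D array set most of the difference: the ratio was -0.28 in 2D and -1.21 in 3D, on average -0.74 ± 0.19, short of the threshold (adjusted p 0.143 in limma after Benjamini-Hochberg adjustment). Over genes never below the floor it passed (limma, Benjamini-Hochberg adjusted p 0.0457), where 28 of all 11201 such genes were higher and 33 lower. DNAJC3, an ER co-chaperone that also inhibits eIF2 kinases, averaged 0.42 ± 0.19 (adjusted p 0.555 in limma after Benjamini-Hochberg adjustment). Of the 46 members 0 were higher, where 0.068% of all genes rose, and 0 were lower, where 0.0604% fell. At an unadjusted p under 0.05 there were 2, HYOU1 and DNAJC3, where 8.14% of all genes were under it. The median member ratio was 0.03 in 2D and -0.10 in 3D.

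At least 2-fold apart between the lines in 2D were 0 members, higher or lower, against 0.227% of all genes higher and 0.234% lower. In 3D 1 member was at least 2-fold higher, SESN2 at 1.13 log2, where 1.11% of all genes were, and 1 was lower, HYOU1, where 1.33% were. The SESN2 signal in 3D in EV cells, 86.7, was near the floor. For ATF4 the ratio of the lines was 0.41 in 2D and -0.23 in 3D, and for TRIB3 it was 0.27 and -0.27.

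Whether the line difference depends on culture was read as the culture ratio in ARHGAP8 cells minus that in EV cells. The additive fit takes this difference of differences as its residual, so it has no error of its own and no test. The 5 largest were 1.38 for SESN2, -1.01 for SLC7A5, 0.96 for ERN1, -0.94 for HYOU1 and -0.83 for XBP1. The other XBP1 probe set did not show this difference, with culture ratios of 0.09 in EV cells and 0.17 in ARHGAP8 cells. SESN2 and ERN1 had their highest signal on the ARHGAP8 3D array and HYOU1 and SLC7A5 their lowest. That array is the one with the high ribosomal RNA control signals, whose part was not tested.

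**Figure D5:**
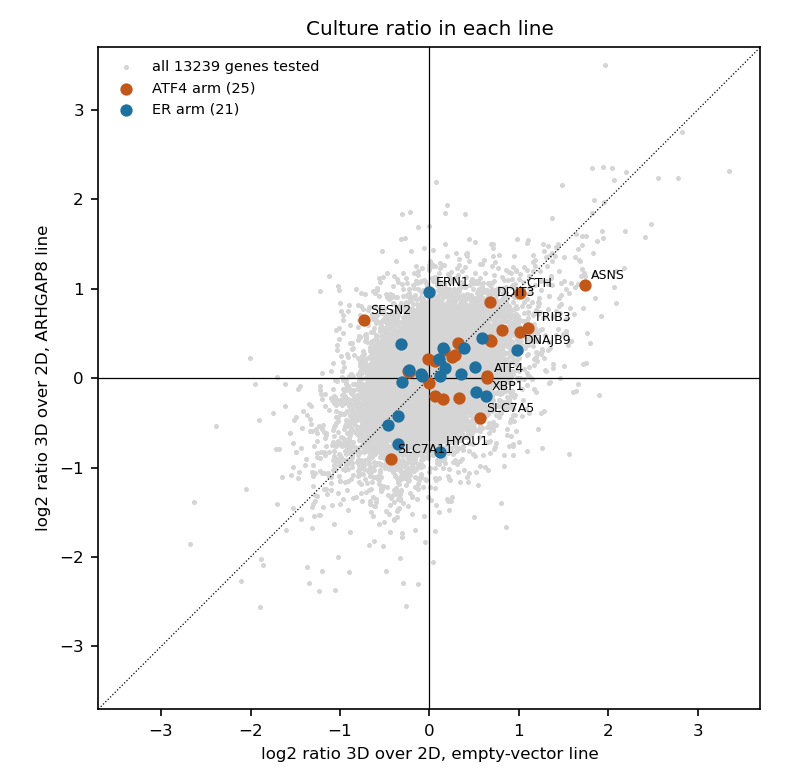
Log2 ratio of 3D over 2D in EV cells (x axis) against that in ARHGAP8 cells (y axis) for all 13239 genes tested (grey) and the 46 members (orange ATF4 arm, blue ER arm), with the dotted line marking equal ratios. ASNS lies farthest to the upper right of the members at 1.74 and 1.04, and 30 of the 46 lie below the dotted line.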

How the data were processed

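RNA of the 4 cultures was hybridised to Affymetrix HG-U133 Plus 2.0 arrays after reverse transcription from a poly(T) primer and amplification, per the labels' protocols. The deposited values are linear signal intensities from MAS5, as the submitters' processing notes name it, whose version is not given in the sources used here. There were 54675 probe sets, 62 of them controls. Of the others 41091 named 1 gene, 1801 several and 11721 none, and the symbols of 41037 probe sets were updated through RefSeq. Of the members' probe sets 3 were shared with another gene and left out, and 16 members had a single probe set.

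Arrays were scaled to a common 2% trimmed mean, values were floored at the median of 72.3 and log2 was taken. A gene was read from its probe set of highest mean and tested if above the floor on at least 2 arrays (13239 genes). The model was plasmid plus culture in limma 3.58.1 (R 4.3.3), using eBayes with a trend on intensity, 1 residual degree of freedom and 19.4 prior degrees of freedom. Both the members and the lists were chosen with earlier results of these data known. Members named in full were those past a test, ATF4, DDIT3, XBP1 and HSPA5, the highest and lowest of each of the 8 roles, and the 5 with the largest dependence on culture; of the other lists, at most 4 per direction. Alternatives were quantile and cyclic loess normalization, no floor or a lower floor, only genes never below the floor, the mean of a gene's probe sets, eBayes without the trend, and leaving out each array.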

Additional observations from a re-analysis of the deposited data

Results flagged for a closer look

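The culture ratio had opposite signs in the lines for 17 of 46 members, and the difference was not tested. For 4 of the 17 both ratios were at least 0.2 in size and at least 1.5-fold apart. The culture difference in ARHGAP8 cells minus that in EV cells was 1.38 for SESN2, -1.01 for SLC7A5, -0.83 for XBP1 and 0.71 for DNAJC3, all on the log2 scale. The other XBP1 probe set had the same sign in both lines, at 0.09 in EV cells and 0.17 in ARHGAP8 cells. DNAJC3, at 478 and 383 in EV cells and 499 and 652 in ARHGAP8 cells, has 3 other probe sets. In EV cells and ARHGAP8 cells they read -1.25 and 1.31, -0.32 and 0.56, and 0.00 and 0.10, the last near the floor.

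Signals outside the gene measurements stood apart on the ARHGAP8 3D array, where the control probe sets of 18S ribosomal RNA had a median of 626 and those of 28S a median of 1390. Their part in the values of the members was not tested.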

How the results depend on the processing

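The 6 members past the culture test became 3 with quantile normalization (ASNS, CTH and TRIB3), 2 with the floor at the 25th percentile, 2 without the eBayes trend, 10 over genes never below the floor (adding CALR, DDIT3, NUPR1 and VLDLR) and 0 with the mean of the gene's probe sets, where 14 members and 18.2% of all genes had an unadjusted p under 0.05 in limma. Over all genes the calls moved too, from 375 higher and 550 lower to 264 and 291 with quantile normalization, 213 and 212 without the trend, 445 and 626 over genes never below the floor, and 25 and 12 with the mean of probe sets. Of 8 alternatives with a test, ASNS passed 7, CTH and TRIB3 5, ATF3 and DNAJB9 3 and SLC7A11 2. HYOU1 was the 1 member past the plasmid test over genes never below the floor. In that setting the plasmid calls over all genes were 28 higher and 33 lower of 11201, against 9 and 8 of the 13239 genes tested otherwise. The ATF4 arm median fell from 0.25 to 0.081 with the mean of probe sets and with the mean of those above the floor on at least 2 arrays, an alternative chosen after seeing the data; leaving out 1 array gave 0.24 to 0.32. The ER arm median of 0.15 was 0.084 with quantile normalization and 0.047 to 0.12 without 1 array. The ATF4 arm minus ER arm gap of 0.10 was 0.15 with quantile and 0.12 with loess normalization, -0.079 and -0.092 with those means of probe sets, and 0.19 to 0.20 without 1 array. Signs reversed for HSPA5 with quantile normalization (-0.029) and for PDIA4 with quantile normalization (0.025), loess (0.039) and both means of probe sets (0.019); the cause was not tested. Leaving out an array left no residual degree of freedom, so those are values with no test. For culture they equal the ratios of the line that kept both arrays, as given above, and so are no separate check. The fit already compares 3D with 2D within each line; the labels carry no replicate numbers for a further block.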
